A study of Rattus norvegicus with 70 samples.

Results

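Described here is messenger RNA of the hypothalamus in rats that breathed air, set against 5 other tissues of air-breathing rats. The 6 hypothalamus air libraries were taken by their labels, tissue and exposure, with no measured value used, and are 6 of 68 libraries with a column in the tables (70 are named in the labels). They were compared with air libraries of lung (n = 6), liver (n = 6), adrenal gland (n = 5), adipose tissue (n = 5) and muscle (n = 6), 34 libraries in all. All rats were male Wistar-Kyoto animals, an inbred strain, and the air groups were the controls of an exposure to 0.8 ppm ozone for 4 h. The labels name no allele, drug or transgene, and give no age, no name of the muscle or fat depot and no method of dissecting the hypothalamus. RNA came from Zymo kits for hypothalamus and adrenal gland and from Qiagen kits for the other 4 tissues, and the authors normalised each tissue as a table of its own. Tissue and table therefore cannot be told apart, nor tissue and kit except against adrenal gland, and only differences of at least 4-fold were called. Smaller differences are given as values only, also where libraries do not overlap, since the separate tables may account for them. Libraries carry numbers, but no label says that each is a separate rat, so a p-value here reflects library-to-library spread, which may be technical in part.

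The hypothalamus lies at the base of the forebrain and links the nervous system to hormones, feeding, water balance, temperature and sleep. Small groups of its neurons make peptide hormones and neuropeptides as larger precursors, which are cut by proteases inside dense-core granules and released on calcium entry. Most of its neurons signal fast through GABA, the main inhibitory transmitter, or glutamate, the main excitatory one, and they sit among astrocytes, myelinating oligodendrocytes, microglia and the tanycytes that line the third ventricle. The adrenal medulla also holds cells of neural crest origin that store catecholamines and peptides in dense-core granules.

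Levels are given as RPM, reads per 1000000 reads assigned to genes, a scale with no correction for gene length, so levels were compared between tissues for 1 gene and never between genes. Each hypothalamus library held 9162216 to 13339418 reads, the 34 libraries held 8854272 to 18848151, and 3 reads, the limit that a count of 0 allows, were worth 0.159 to 0.339 RPM per library. Transcripts of marker genes of other tissues were found in the hypothalamus libraries and differed between them. The summed level of 12 liver markers was 1376 and 1252 RPM in air libraries 1 and 6 and 41.8 to 249.5 in the other 4, against 136230 to 154840 in liver. The 10 lung markers summed to 6.76 to 224.6 RPM, highest in library 1, adrenal markers without Th, which hypothalamic neurons also express, to 8.44 to 226.1, highest in library 2 (38.2 to 250.0 with Th, which is 137 of the 227.5 in library 6), adipose markers to 14.6 to 57.1 and muscle markers to 8.15 to 19.1. In the other direction, the 15 genes with the largest differences below summed to 98.98 RPM in adrenal library 8 and to 4.07 to 11.5 in the other 4 adrenal libraries, against 7688 to 8695 in hypothalamus, and adipose library 2 held most muscle transcripts (15573 RPM of the muscle markers). The effect of these reads on low values was not tested. Without Th, the adrenal markers still hold Nr5a1, also a gene of the ventromedial nucleus. The liver markers hold Ttr, also a choroid plexus marker. The part of these 2 genes in the lowest sums was not tested either. Of the 10 muscle markers, 1 was called higher in hypothalamus than in lung, 1 than in liver and 1 than in adrenal gland. Whether the muscle marker reads in hypothalamus came from muscle was not tested. The counts called against single tissues, against all 5 and with adrenal gland as the exception were also taken without each of the 34 libraries in turn, and these counts and those of the gene lists without hypothalamus libraries 1 and 6 together.

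Of 19441 genes, 15536 had a mean of at least 1 RPM over the 6 tissue means and were tested. On log2(value + 1), with limma and Benjamini-Hochberg adjustment, a gene was called where adjusted p was under 0.05 and the difference at least 2, or 4-fold on that scale, where the added 1 shrinks differences of low genes. By this rule 1209 genes (7.78% of those tested) were higher in hypothalamus than in each of the 5 tissues and 21 (0.135%) were lower than in each. A further 180 genes (1.16%) were higher than in the other 4 tissues but not called higher than in adrenal gland. Without libraries 1 and 6 the counts were again 1209 higher and 21 lower, with 1183 and 18 genes shared with the calls above, and without adrenal library 8 they were 1212 and 21.

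Against single tissues, 1798 genes (11.6%) were higher and 1633 (10.5%) lower than in lung, 2356 (15.2%) and 891 (5.74%) than in adrenal gland, and 2405 (15.5%) and 1266 (8.15%) than in adipose tissue. Against liver 4406 (28.4%) were higher and 1005 (6.47%) lower, and against muscle 3543 (22.8%) and 652 (4.2%). Liver and muscle are the tissues where the 12 mitochondrial and 100 most abundant genes (104 genes in all) took most reads, 37.1% and 39.5%, against 12.3% in hypothalamus and in lung. The median difference over all genes was -0.04 against lung, 0.05 against adrenal gland, 0.16 against adipose tissue, 1.04 against liver and 0.85 against muscle, and TMM scaling brought each to between -0.11 and -0.04. Under TMM the counts were 2553 higher and 1922 lower against liver, 2087 and 1380 against muscle, and 1013 and 48 against all 5 tissues. The count test edgeR on the recovered reads called 1164 genes higher and 177 lower than in all 5, so 86.8% of its calls were higher against 98.3% in limma.

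**Figure D1:**
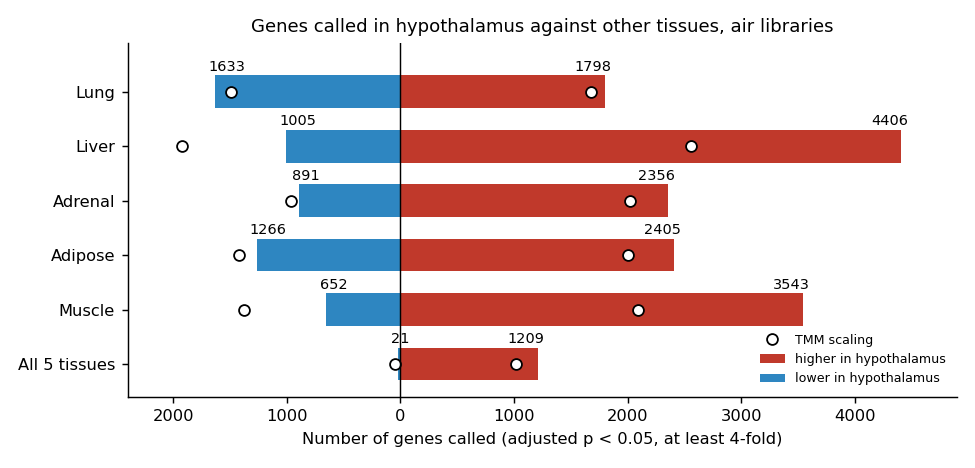
Number of genes called higher (right) and lower (left) in hypothalamus than in each tissue and than in all 5 tissues. Bars are the limma calls on values rescaled to 1000000 reads (15536 genes tested), and open circles are the same calls under TMM scaling. The bar for genes higher than in liver reaches 4406 and its circle is at 2553.

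For the 1209 genes, the size of a difference is given by the smallest of the 5, which had a median of 3.48 and reached 5 or more in 202 genes. Together these genes took 19.4% to 21.2% of the reads in the hypothalamus libraries and at most 1.25% in any library of another tissue. In 1205 of them every hypothalamus library lay above all 28 other libraries, as in 2353 of all tested genes (15.1%). The other tissue with the highest mean level was adrenal gland for 569 of the genes (47.1%), lung for 339, adipose tissue for 170, muscle for 92 and liver for 39. Without adrenal library 8 it was adrenal gland for 492 (40.7%) and lung for 380. Of 402 tested genes below 1 RPM in all 5 other tissues, 387 were called. Such genes had passed the filter through hypothalamus alone and had to differ, so counts of called members are given below as descriptions. Close to the threshold, Hk1, a hexokinase, was inside it with a smallest difference of 2.05 and the glutamate receptor subunit Grin2c was outside it with 1.97 ± 0.14 (against lung). Hk1 was lost without adipose library 2 (1.99), under TMM (1.79) and in edgeR (1.82), and Grin2c was called without hypothalamus library 2 or lung library 1 or 10 (2.01 to 2.05), with a pseudocount of 0.1 (2.08), in edgeR (2.07) and in DESeq2 (2.26).

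Among the 15 genes with the largest smallest difference was Gad2, a glutamate decarboxylase that makes GABA. Here and below, 3 values for hypothalamus are its lowest, median and highest library. They were 528, 584 and 657 RPM, and the values were 0 to 5.74 in adrenal gland, the next tissue. The smallest difference was 8.46 ± 0.27 (limma adjusted p = 1.36e-24, higher in 6 of 6 libraries than in any other library), and 8.96 without adrenal library 8, which held the highest adrenal value. Others were the GABA transporter Slc6a11 (8.16), the prostaglandin D synthase Ptgds (7.91), the vesicular glutamate transporter Slc17a6 (7.89) and Pmch, the precursor of melanin-concentrating hormone (7.83). Ptgds, which leptomeningeal cells and oligodendrocytes are known to make, spread most of these, from 279.7 to 980.2 RPM. Further genes of the first 15 were Gad1 (7.82), Gfap of astrocytes (7.67), the calcium sensor Hpcal4 (7.65), the myelin genes Mag (7.59) and Mobp (7.58), the small GTPase Rab9b (7.45), Trh (7.41) and Irs4, an insulin receptor substrate (7.25). None of the 15 overlapped with a library of another tissue. This largely follows from picking them by size in the same libraries, and the p-value of Gad2 is likewise a description.

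**Figure D2:**
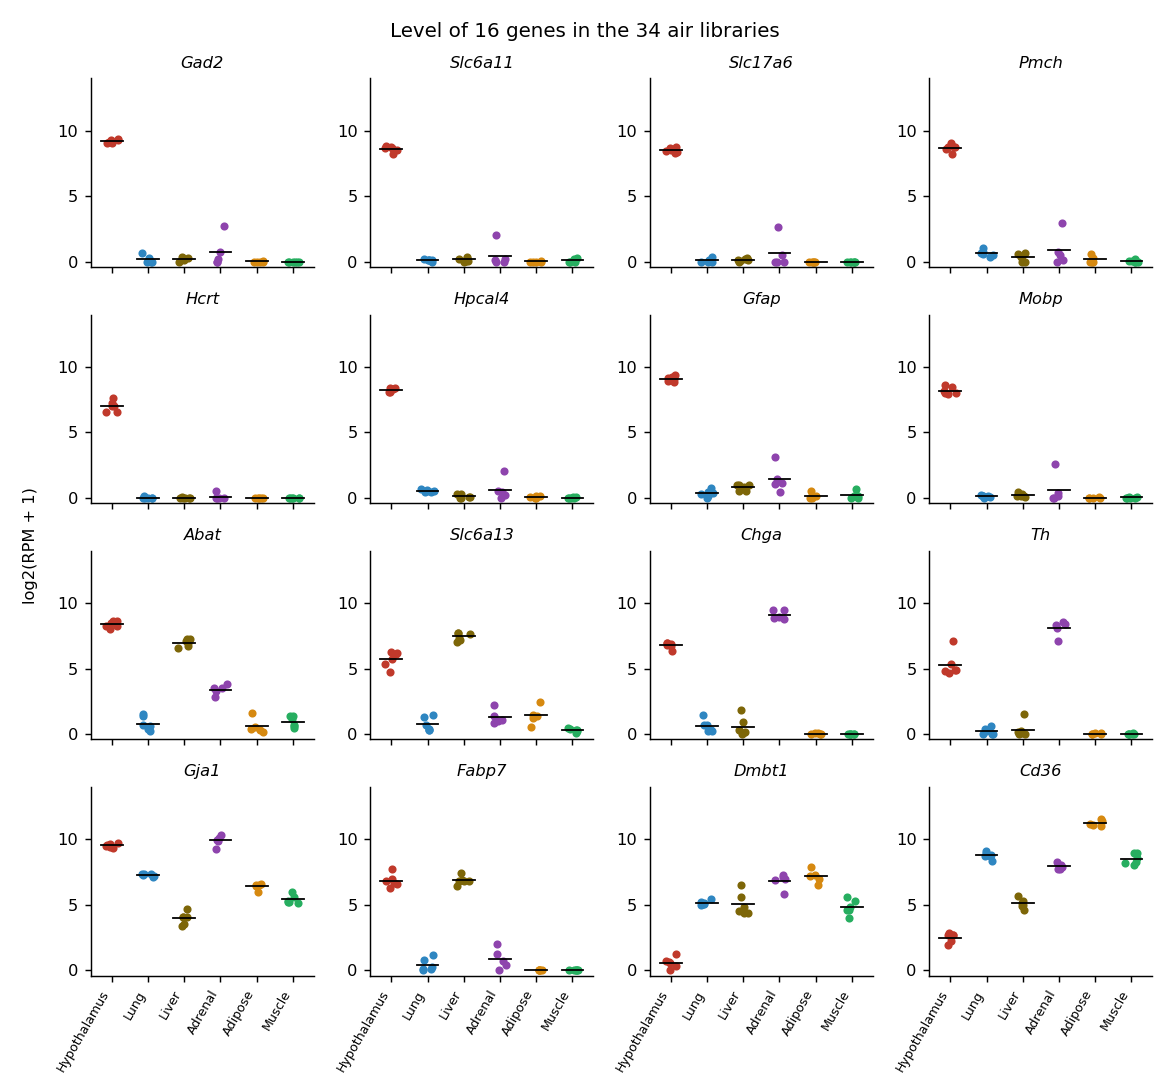
Level of 16 genes in each of the 34 air libraries (points) on a log2(RPM + 1) axis, 1 panel per gene, with the tissue on the horizontal axis and a bar at each tissue's mean. The first 8 genes were higher in hypothalamus than in all 5 tissues and do not overlap with them. The liver libraries of Slc6a13 lie above hypothalamus, Chga and Th are higher in adrenal gland, the glial genes Gja1 and Fabp7 overlap with adrenal gland and liver, and Dmbt1 and Cd36 are lower in hypothalamus than in every other tissue.

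Of 26 genes for GABA and glycine synthesis, transport and receptors, 24 were higher than in all 5 tissues, where 7.78% of all genes tested were, and the median of their smallest difference was 5.13 (-0.72 over all genes tested). Gad1 had 295, 329 and 351 RPM and Slc32a1, the vesicular GABA transporter, had 89.8, 104 and 111, against at most 0.155 in adrenal on average. All receptor subunits in the list were called. Both uncalled genes were high in liver. Abat, the transaminase that breaks GABA down, had 257, 331 and 408 RPM in hypothalamus and 94.7 to 153 in liver, with 1.40 ± 0.23 as the difference. Slc6a13, a GABA transporter of liver and meninges, had 26.3, 60.6 and 76.6 against 132 to 216 in liver (-1.72 ± 0.27), and the liver libraries lay above all 6 of hypothalamus.

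Of 28 glutamate genes tested, 22 were higher than in all 5 tissues, with a median smallest difference of 4.00. Slc17a6, the vesicular transporter of most hypothalamic and thalamic glutamate neurons, had 309, 359.9 and 444 RPM and at most 1.17 in adrenal on average. Its relatives Slc17a7 and Slc17a8, used by cortical neurons and by scattered neurons elsewhere, had 1.37, 1.76 and 5.43 and 2.07, 2.68 and 4.47 RPM and fell below the filter. The AMPA receptor subunit Gria4 (5.76) and the astrocyte glutamate transporter Slc1a2 (5.35) were among the called genes. The 6 uncalled genes each had another tissue within 4-fold or above on the log2(value + 1) scale. Gls2, the liver form of glutaminase, averaged 49.7 ± 6.99 RPM in hypothalamus and 384 ± 74.7 in liver. The receptor subunit Gria3 averaged 189 ± 9.99 against 518 ± 201 in adrenal gland, Slc1a1 88.4 ± 6.85 against 97.7 ± 11.6 in lung and Slc1a3, the other main astrocyte transporter, 326 ± 60.4 against 189 ± 55.8 in adipose tissue (all ± SD). Grin2c was at the threshold, as given above.

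Neuropeptide precursors are the genes the hypothalamus is best known for, and 40 of 44 listed were in the tables. Of these 21 were tested, 17 were higher than in all 5 tissues, 1 was shared with adrenal gland, 3 were not called and 19 were below the filter. The promoters of 4 of the 17 are shown first, so that the elements counted after them can be read in place. They are the 250 bases before the transcription start in RefSeq on the GRCr8 assembly, which is not the rn6 build named for the expression tables, and each is written 5′ to 3′ along the gene, all on the minus strand. Capitals mark the cyclic AMP response element TGACGTCA, the E-box motif CACGTG and the promoter element TATAAA of the TATA box, searched on both strands.
Cartpt, chr2:32991236-32991485: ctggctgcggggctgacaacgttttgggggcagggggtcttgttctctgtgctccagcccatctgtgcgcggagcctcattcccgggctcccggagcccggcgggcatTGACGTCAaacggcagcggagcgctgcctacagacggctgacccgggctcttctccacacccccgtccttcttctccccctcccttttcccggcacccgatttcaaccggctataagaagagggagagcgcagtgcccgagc
Vgf, chr12:25277021-25277270: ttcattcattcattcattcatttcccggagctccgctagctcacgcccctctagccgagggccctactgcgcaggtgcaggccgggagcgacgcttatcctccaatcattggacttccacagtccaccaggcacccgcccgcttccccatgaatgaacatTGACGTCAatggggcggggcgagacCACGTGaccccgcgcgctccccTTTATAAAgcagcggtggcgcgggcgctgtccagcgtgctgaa
Hcrt, chr10:86191525-86191774: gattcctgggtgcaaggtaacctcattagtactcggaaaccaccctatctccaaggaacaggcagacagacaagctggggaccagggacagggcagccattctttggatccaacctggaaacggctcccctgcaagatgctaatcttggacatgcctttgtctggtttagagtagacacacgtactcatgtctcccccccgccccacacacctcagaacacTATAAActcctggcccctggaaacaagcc
Avp, chr3:138248523-138248772: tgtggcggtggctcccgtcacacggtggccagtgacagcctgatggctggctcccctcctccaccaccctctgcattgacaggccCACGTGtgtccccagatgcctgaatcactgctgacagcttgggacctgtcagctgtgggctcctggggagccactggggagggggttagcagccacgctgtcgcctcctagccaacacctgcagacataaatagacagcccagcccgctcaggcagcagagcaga

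The cyclic AMP response element began 142 bases before the start in Cartpt and 90 in Vgf, the E-box 65 in Vgf and 165 in Avp, and the TATA box 29 in Hcrt. Vgf held TATAAA on both strands, at 41 and 43 bases, and these matches overlap. Among 27457 promoters of 1 per symbol, TGACGTCA was in 1.7%, CACGTG in 5.79% and TATAAA in 13.1%. A promoter was matched for 13 of the 17 precursors, of which 2 held TGACGTCA (Cartpt and Vgf), 3 CACGTG (Avp, Tac1 and Vgf) and 6 TATAAA (Pomc, Hcrt, Gal, Vip, Adcyap1 and Vgf). Of the 1209 genes, 876 were matched, and 3.77%, 5.71% and 7.42% held the 3 elements, against 2.71%, 7.74% and 7.01% of 10906 tested genes. A match is a description of these letters and not a site of binding.

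Among precursors of the lateral hypothalamus, Pmch had 302, 422 and 549 RPM as its lowest, median and highest value. Hcrt, the precursor of the wake-promoting orexins, had 92.3, 128 and 198 (smallest difference 6.91). In both, every hypothalamus library was far above the other tissues, where the highest mean was 1.56 ± 2.85 RPM for Pmch, in adrenal gland (± SD). Cartpt, whose peptides limit feeding, had 92.9, 189.8 and 354 (6.57), with the highest value in library 1 and the lowest in library 7. In bulk tissue, fewer cells of a type and less RNA per cell cannot be told apart.

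Of the precursors that control the pituitary, Trh, the thyrotropin-releasing hormone gene, had 521, 274, 298, 395, 105 and 165 RPM in libraries 1, 2, 3, 4, 6 and 7, with libraries 6 and 7 lowest. Avp, the vasopressin gene, had 128, 127, 128, 82.4, 44 and 65.7 in the same order, and Oxt, the oxytocin gene, 52, 54.9, 76.5, 66.9, 27 and 37.5. In all 3 genes libraries 6 and 7 were the lowest of the 6. The smallest differences were 7.41 for Trh, 6.23 for Avp and 5.61 for Oxt, which was listed at 0 in every lung, adrenal and muscle library. Sst, the somatostatin gene, had 79.3, 119.9 and 212 RPM (6.77). Crh and Ghrh, the releasing hormones for corticotropin and growth hormone, had 0.873, 2.13 and 3.38 and 0.165, 0.504 and 0.712 and were below the filter. Gnrh1 had 0.764, 1.22 and 2.48 against 1.94 ± 0.439 in adipose tissue (mean ± SD) and overlapped with the other tissues.

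Of the precursors of the arcuate nucleus Pomc and Tac3 were called. Pomc, which gives the satiety peptide alpha-MSH, had 13.6, 16.6 and 22.3 RPM (3.83), and its counterparts Agrp and Npy had 0.662, 0.879 and 1.34 and 0.165, 0.255 and 2.07, both below the filter. Kiss1, which drives gonadotropin-releasing neurons, had 0.165, 0.547 and 0.968. Tac3, expressed with it in the arcuate nucleus, had 5.68, 6.87 and 17.6 (2.71).

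Other peptides called higher were Vgf (134, 172 and 211 RPM, 6.30), whose peptides act on energy balance, and Adcyap1, the precursor of PACAP (54.9, 78.6 and 81.9, 5.53). Penk, the enkephalin precursor, had 148, 266 and 402 RPM, and its smallest difference, 3.59, was against adrenal gland, where it had 17.8 to 23. Gal, the galanin gene, had 70.1 RPM in library 1 and 7.86 to 20.9 in the other 5 (3.96), and Cck, the cholecystokinin gene, 34.5 in library 6 and 7.34 to 10.9 in the other 5 (3.08). Tac1 (3.48), Nts (2.40) and Vip (2.35) completed the 17. Vip, a peptide of the suprachiasmatic clock, spread from 1.96 to 10.5 RPM. With a pseudocount of 10, which shrinks differences of low genes, 7 of the 17 fell short: Pomc (1.40), Gal (1.57), Tac1 (1.69), Nts (1.46), Cck (1.08), Tac3 (0.82) and Vip (0.67).

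Of the remaining precursors, Pdyn, the dynorphin gene, had 61.1, 101 and 127 RPM in hypothalamus and 27.8 to 37.8 in adrenal gland, a difference of 1.54 ± 0.12 that was short of the threshold although the groups did not overlap. Bdnf, a growth factor of neurons, had 15.4, 18.5 and 23.4 against 16.8 to 32.2 in lung. Nucb2, the nesfatin precursor, averaged 30.2 ± 3.12 (SD) against 69.7 ± 9.17 in lung, 70.6 ± 13.2 in liver, 87.4 ± 22.7 in adrenal gland and 80.1 ± 19.2 in adipose tissue. The means of all 4 of these tissues were above that of hypothalamus. Below the filter with Crh, Ghrh, Agrp, Npy and Kiss1 were Pnoc, Nmu, Nmb, Npvf, Npw, Npb, Qrfp, Ucn, Ucn3, Grp, Npff, Rln3, Calca and Calcb. Npvf, a peptide of the dorsomedial nucleus, had a median of 2.78 RPM in hypothalamus, and Npw had a median of 0 there and a mean of 5.62 ± 1.62 in lung.

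**Figure D3:**
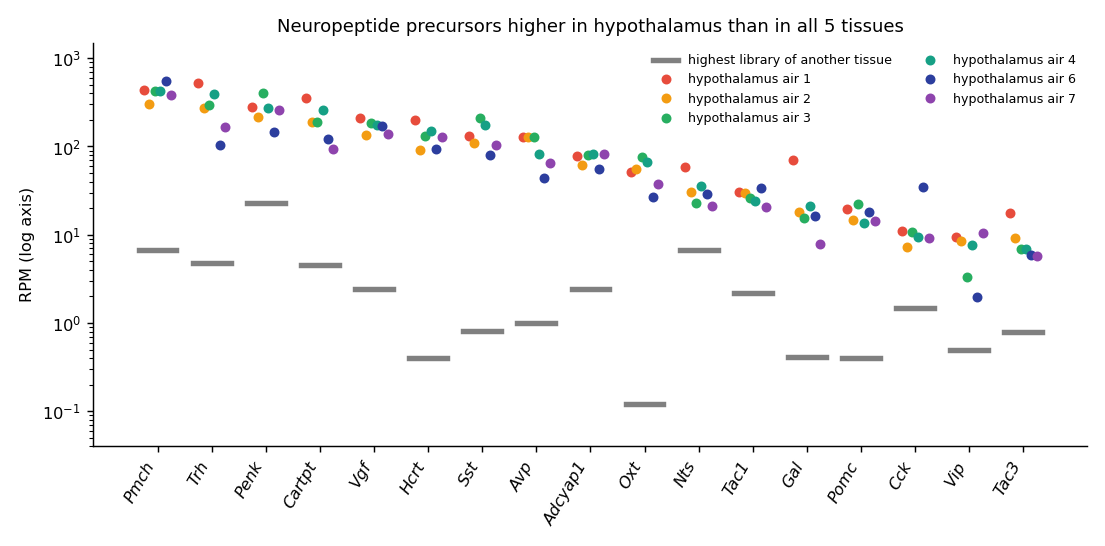
Level of the 17 neuropeptide precursors called higher than in all 5 tissues, in RPM on a log axis. Coloured points are the 6 hypothalamus air libraries by number, and the grey bar marks the highest value in any library of another tissue. Nts and Vip come closest to another tissue, and libraries 6 and 7 are lowest for Trh, Avp and Oxt.

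A list of genes for the granules that hold these peptides and for peptide processing was measured next. Of 16, 11 were higher than in all 5 tissues, with a median smallest difference of 2.68, and against lung, liver, adipose tissue and muscle alone the list's medians were 6.78, 7.77, 7.33 and 7.58. Against adrenal gland the median was 3.05. Pcsk2, the protease that cuts many precursors, had 224, 267 and 292 RPM against 5.48 to 10.6 in adrenal gland (4.98), and its chaperone Scg5 had a smallest difference of 4.15. Ptprn2, a granule membrane protein (4.39), was also among the largest. Nap1l5 (6.08) was the largest of the list, but it is a relative of nucleosome assembly proteins and not an established granule gene. Scg2, a granin, had 850.4, 1057 and 1251 RPM and 152 to 222 in adrenal gland (2.50). Chga, another granin, was higher in adrenal gland, with 78.6, 114 and 125 in hypothalamus against 434 to 714 (-2.32 ± 0.24, limma adjusted p = 1.05e-10). Chgb had 147, 191 and 274 against 185 to 805 (-1.41 ± 0.29, not called). Adrenal libraries lay above all hypothalamus libraries in Chga, whereas the ranges of Chgb overlapped.

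Pcsk1, Pam and Cadps2 were not called. Pcsk1, the other main convertase, averaged 74.1 ± 16.8 RPM against 30.4 ± 8.34 in lung. Pam, the enzyme that amidates peptide ends, averaged 805 ± 123 and was found in all tissues, with 524 ± 44.7 in lung (± SD).

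Of the 180 genes higher than in the other 4 tissues but not called higher than in adrenal gland, 6 were lower than in adrenal gland, 174 were not called against it, and in 49 the adrenal mean was above that of hypothalamus. By size against the other 4 tissues the first 10 were Dync1i1, Tmem178b, Chgb, Syt13, Pdyn, Syn2, Chga, Dcaf12l1, Reep2 and Ogdhl. Dync1i1, a dynein intermediate chain of neurons, had 163, 180.0 and 219 RPM against 37.9 to 64.5 in adrenal gland and under 1 in the others. Syn2, a synapsin of synaptic vesicles, had 144, 152 and 182 against 44.5 to 73.3, and Reep2, a protein that shapes the endoplasmic reticulum, 133, 158 and 332 against 176 to 395. Dync1i1 and Syn2 were higher in hypothalamus without overlap but under 4-fold, and Reep2 overlapped. Tmem178b, at 1.98 ± 0.19 against adrenal gland, passed the threshold without adrenal library 8 (2.17) or 9 (2.12) or hypothalamus library 1 (2.02) or 3 (2.03).

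**Figure D4:**
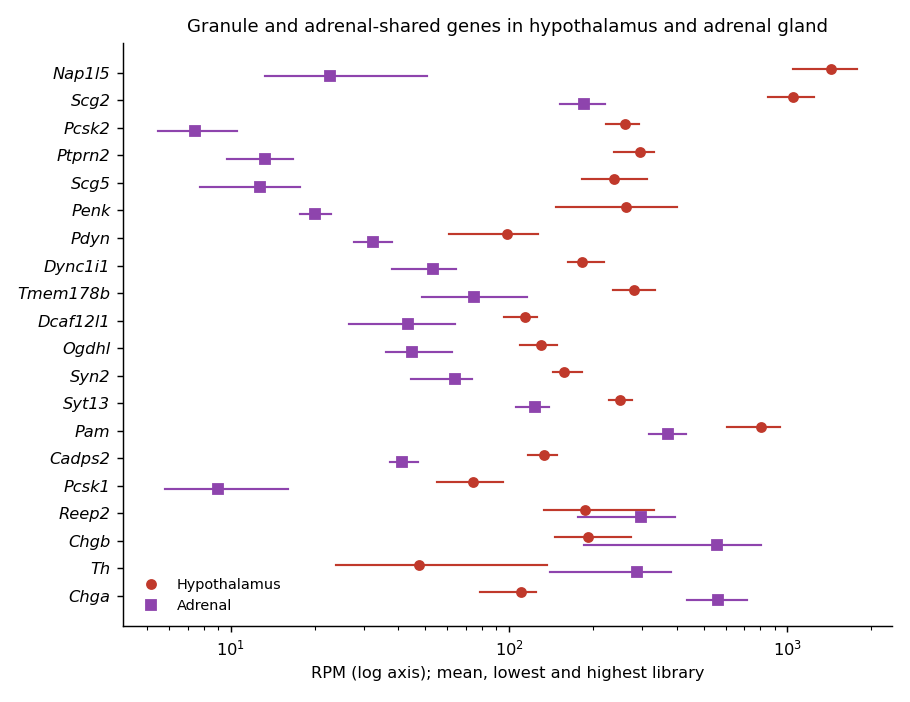
Mean level in hypothalamus (circles, n = 6) and adrenal gland (squares, n = 5) of 20 genes, in RPM on a log axis. They are 10 genes of the granule list (with Nap1l5, not an established granule gene), Penk, Th and the first 10 adrenal-shared genes. Horizontal lines run from the lowest to the highest library. The means of Chga, Chgb, Th and Reep2 are above those of hypothalamus in adrenal gland, and the lines of Nap1l5, Pcsk2 and Scg5 lie far apart, with hypothalamus above.

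Transcription factors that pattern the hypothalamus and forebrain set its neurons' identities. Of 42 with a measured symbol, 25 were tested and 16 were higher than in all 5 tissues (median smallest difference 2.72). Pou3f3, a POU factor of neurons, had 43.4, 51.2 and 54.6 RPM (5.34), Myt1l, a factor that holds neuronal identity, 43.8, 74.6 and 104 (5.32), Fezf1, of the ventromedial hypothalamus, 19.4, 36.6 and 44 (4.95) and Zic1 27.6, 30.3 and 39.5 (4.93). The 9 uncalled factors each had another tissue within 4-fold or above on the log2(value + 1) scale. Nkx2-1, needed for both ventral forebrain and lung, had 16.3, 21.2 and 27.8 in hypothalamus and 149 to 193 in lung. Nr5a1, the steroidogenic factor of the ventromedial nucleus and the adrenal cortex, had 3.93, 5.95 and 7.2 against 139 to 466 in adrenal gland, and the part of the adrenal reads in the hypothalamus libraries in its level was not tested. Sim1, which makes paraventricular neurons, had 23.9, 36 and 46 against 10.8 to 27.2 in muscle, and Sim2 also had its highest mean in muscle (9.7 ± 6.78, mean ± SD). Tbx3 had its highest mean in adrenal gland (383 ± 54.6), and Lhx2 and Lmx1a had 4.15, 6.7 and 7.57 and 1.87, 5.56 and 11 in hypothalamus with 1.91 ± 0.358 in liver and 2.39 ± 0.439 in adipose tissue.

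Of 37 vesicle and release genes 32 were higher than in all 5 tissues (31 without libraries 1 and 6), with a median smallest difference of 4.05. Cplx1, a complexin that clamps fusion, had 246, 319.6 and 415 RPM (7.13), Syt1, the calcium sensor of fast release, 1175, 1296 and 1493 (5.93), and Syn1 206, 231 and 316 (5.92). Syt11 had 5.92. Syn2, Nsf and Doc2a were shared with adrenal gland, at 1.31 ± 0.13, 1.96 ± 0.13 and 1.25 ± 0.15, and Nsf passed without adrenal library 2 or 9 or hypothalamus library 1 (2.01 to 2.03) and in DESeq2 (2.02). The remaining genes were Sypl2, a synaptophysin relative of muscle triads with 654 ± 85 RPM in muscle and 0.598 ± 0.145 in hypothalamus, and Doc2b.

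On the receiving side, 14 of 28 scaffold and adhesion genes were called (median smallest difference 1.89). The neurexins Nrxn3 (91.6, 151 and 201 RPM, 6.89) and Nrxn2 (5.65), the scaffold Shank1 (6.46) and the neuroligin Nlgn1 (6.39) had the largest differences. The kinase subunits Camk2a and Camk2b were not called, and both had their next level in muscle. Camk2a had 101, 152 and 177 RPM against 32.5 to 79.4 in muscle without overlap, and Camk2b had 223, 249.6 and 316 against 187 to 289 with overlap.

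Of 44 voltage-gated channel genes 28 were higher than in all 5 tissues (27 without libraries 1 and 6), with a median smallest difference of 2.83. The sodium channel Scn2a had 307, 535 and 711 RPM (6.58), the calcium channel Cacna1e 32.7, 81.6 and 136 (5.91), and the regulatory subunit Cacng4 77.5, 86.6 and 99.3 (5.48). Library 1 was lowest in Scn2a and Cacna1e, at 307 and 32.7. The muscle channels Scn4a and Cacna1s were among the uncalled, with 656 ± 166 and 1728 ± 497 RPM in muscle (± SD). Of 21 RNA-binding genes of neuronal splicing 11 were called (median 2.29), led by Elavl2 (6.38), Celf5 (6.14), Elavl4 (5.68) and Celf6 (4.68). Ptbp1, which represses neuronal exons outside neurons, averaged 55.6 ± 12.9 RPM in hypothalamus and was not called higher, with 231 ± 28.6 in adrenal gland and 192 ± 38.8 in lung.

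Of 43 receptors for feeding, stress and hormone signals 19 were higher than in all 5 tissues (18 without libraries 1 and 6), 4 were shared with adrenal gland and the median smallest difference was 1.57. Htr2c, the serotonin receptor of satiety, had 250.0, 297 and 346 RPM (5.99), and Calcr, the calcitonin and amylin receptor, 91.9, 128 and 153 (5.80). Trhr (4.52) and the kappa opioid receptor Oprk1 (4.19) followed. Of the melanocortin receptors, Mc3r had 5.57, 6.31 and 8.36 and was listed at 0 in all 28 other libraries, and Mc4r had 2.85, 3.46 and 4.39 and was below the filter. Hcrtr2, an orexin receptor, was lower than in adrenal gland, with 8.19, 12.2 and 14 in hypothalamus and 52.5 to 104 in adrenal gland (-2.51 ± 0.14). Sstr2 had -1.44 ± 0.11 against adrenal gland, and Drd2 and Cnr1 had 1.67 ± 0.14 and 1.66 ± 0.31. Lepr, the leptin receptor, averaged 16.4 ± 7.43 RPM against 28.8 ± 7.25 in lung, and Ghr, the growth hormone receptor, was below every other tissue, with 23.2, 28.3 and 36.1 RPM and no overlap, though under 4-fold against lung (-1.53 ± 0.16).

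For monoamines and acetylcholine, 4 of 16 tested genes were called: Slc6a3, Hdc, Slc18a2 and Slc5a7. Hdc, the enzyme that makes histamine in tuberomammillary neurons and in mast cells, had 56.4, 74.7 and 91.8 RPM against 5.1 to 9.42 in adipose tissue and 6.24 to 9.43 in lung (3.14). Slc18a2, the vesicular monoamine transporter, had a smallest difference of 2.87, and Slc5a7, the choline transporter, 2.74. Slc6a3, the dopamine transporter, had 19.4, 1.94, 2.17, 2.41, 142 and 16.8 RPM in libraries 1, 2, 3, 4, 6 and 7. Th, the tyrosine hydroxylase gene of catecholamine synthesis, had 39.1, 23.9, 27.4, 29, 137 and 29.3 in the same order and 141 to 383 in adrenal gland (-2.82 ± 0.30). Library 6 was highest in both, while Dbh and Pnmt, the next enzymes of the adrenal medulla, had at most 2.82 and 0.161 RPM in any hypothalamus library. Nefh, a neurofilament, was also highest in library 6 (125 against 26.1 to 34.3 in the other 5).

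The tissue label was checked with markers of neurons and glia. Of 22 neuron markers 21 were higher than in all 5 tissues (20 without libraries 1 and 6), and Nefh was shared with adrenal gland. The summed level of the 22 was 9445 to 12750 RPM in hypothalamus, 351.6 to 605.0 in adrenal gland and at most 116.1 elsewhere. Gap43, of growing axons, had 6.17 and Nefl 5.98. Of 24 astrocyte markers 12 were called and 1 was shared. Gfap had 462, 559.6 and 664 RPM, Mlc1, of perivascular endfeet, 233, 271 and 300.1 (7.19), Ttyh1 528, 555 and 598 (6.91) and the gap junction gene Gjb6 81.7, 154 and 218 (6.80). Gja1, the other astrocyte connexin, had 659.8, 754 and 833 against 609.5 to 1319 in adrenal gland, and Fabp7, a fatty acid binding protein of astrocytes and tanycytes, 76.7, 107 and 216 against 86 to 168 in liver. Both overlapped with that tissue.

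Of 27 oligodendrocyte markers 19 were higher than in all 5 tissues. The myelin protein gene Mbp had 3867, 4485 and 5665 RPM (5.91), Mobp 243, 272 and 393 and Opalin 124, 188 and 203 (7.05). Tf, the transferrin gene, was not called, since liver had 20124 ± 2756 RPM against 694 ± 215 in hypothalamus. Of 7 precursor markers tested Cspg5 (4.16), Gpr17 (2.83), C1ql1 (2.47) and Pcdh15 (2.47) were called (3 without libraries 1 and 6). Pdgfra and Cspg4, also made by fibroblasts and pericytes, had higher means in lung (331 ± 126 and 66 ± 9.33) than in hypothalamus (192 ± 48.8 and 46.3 ± 5.57).

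Of 16 microglia markers 0 were higher or lower than in all 5 tissues. Of all genes tested 7.78% were higher and 0.135% lower, so a count of 0 in a list this short says little. Cx3cr1, the fractalkine receptor, was just outside, with 32.1, 43.3 and 51.3 RPM and 1.96 ± 0.20 against lung (called without hypothalamus library 3 or lung library 1 or 2, at 2.03 to 2.05, and in edgeR, 2.04, and DESeq2, 2.23), and P2ry12 had 0.73 ± 0.19 against adrenal gland. Csf1r, shared by all macrophages, averaged 108 ± 4.64 against 237 ± 21.6 in lung. The list's summed level was 379.3 to 410.7 RPM in hypothalamus and 408.5 to 558.7 in lung, and these ranges overlapped. It was 424.7 to 1060.9 in adipose tissue, 254.0 to 571.3 in adrenal gland, 195.9 to 321.5 in liver and 71.4 to 177.6 in muscle. Of 17 brain endothelial and pericyte markers 3 were called, among them Slco1c1, the thyroid hormone transporter of the blood-brain barrier (67.5, 70.7 and 81.3, 5.82) and the glucose transporter Slc2a1 (2.12). Cldn5, a tight junction gene of all endothelia, had 225 ± 46.2 in lung against 35.2 ± 7.89. Of 13 tanycyte and ependymal markers 0 were called, a count that also says little at these shares, and Gpr50 was shared with adrenal gland.

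Markers of neighbouring structures were checked too. Of 5 pituitary markers tested only Cga, the glycoprotein hormone subunit of the pars tuberalis and anterior pituitary, was called, with 15.9, 20.2 and 33.6 RPM (4.29). Of 13 tested markers of cortex, striatum and thalamus 4 were called: Rorb (11.8, 24.6 and 36.2), Drd1 (9.93, 11.1 and 14.2), Rgs9 (16.8, 18.1 and 21) and Lamp5 (5.16, 7.15 and 8.85). Of 8 choroid plexus markers 0 were higher (7.78% of all genes tested were) and 1, Aqp1, was lower (0.135%). The part of neighbouring tissue in these libraries was not tested.

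Of 16 genes of the neural matrix and perineuronal nets 13 were higher than in all 5 tissues (median smallest difference 3.73), among them the node protein Nfasc (421, 494 and 544 RPM, 6.72), the proteoglycans Ncan (6.64) and Bcan (5.29) and the adhesion gene Ncam1 (5.43). Vcan and Tnc, made by fibroblasts as well, were not called, with 42.5 ± 13.3 RPM in hypothalamus against 36.9 ± 8.71 in adipose tissue for Vcan, and 19.9 ± 4.38 against 81.5 ± 19.5 in lung for Tnc. Of 29 collagen and fibrous matrix genes 0 were higher and 0 lower than in all 5 (7.78% and 0.135% of all genes tested were). Against single tissues 24 were lower than in adipose tissue, 17 than in lung and 10 than in muscle. Lower than in adrenal gland were 4, and lower than in liver 1. Of all genes tested, 8.15%, 10.5%, 4.2%, 5.74% and 6.47% were lower than in these 5 tissues, in this order. Higher than in liver were 12 of the list (28.4% of all genes tested were, a share that falls under TMM). Col3a1, a fibrillar collagen, had 105, 232 and 315 RPM in hypothalamus. Its level was 113 to 275 in liver and 6269 to 8591 in adipose tissue.

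Enzymes of energy metabolism come as paralogs that tissues use in different mixes. Of 48 paralogs tested 11 were higher in hypothalamus than in all 5 tissues (10 without libraries 1 and 6), 0 were lower and 2, Pfkp and Acot7, were shared with adrenal gland. Acot7 was called without adrenal library 8 (2.25) or hypothalamus library 2, 6 or 7 (2.01 to 2.08). In glycolysis the neuronal enolase Eno2 had 418, 473 and 655 RPM (4.40), whereas Eno3, the muscle enolase, had 2.95, 5.21 and 6.86 against 3565 ± 982 in muscle. Aldoc, the brain aldolase, had 382, 443 and 584 (6.33), Hk1 301, 359 and 400.4 and Slc2a1 258, 317 and 428. Pygb, the brain glycogen phosphorylase, was called (2.20), and Pygm, the muscle form, had 84.9, 96.3 and 111 in hypothalamus, above lung, liver and adrenal gland and below muscle (7505 ± 1669.8).

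For energy transfer and ion pumping, the brain creatine kinase Ckb (691, 772 and 1044 RPM, 2.90) and its mitochondrial partner Ckmt1 (88, 111 and 179.9, 2.49) were higher, and the muscle kinase Ckm was at most 0.089 in any hypothalamus library. The pump gene Atp1b1 (2503, 2750.3 and 3049, 2.57) and the plasma membrane calcium pump Atp2b2 (389, 462 and 549, 4.53) were higher. Atp1b1 was lost under TMM (1.44), edgeR (1.42) and DESeq2 (1.60). Of the carnitine palmitoyltransferases Cpt1c, the brain form, was called (39.3, 44.6 and 48.5, 2.84) but not under TMM (1.93). Cpt1a had 58.7, 75.3 and 81.7 against 438 ± 212 in liver, and Cpt1b 4.8, 6.47 and 6.7 against 342 ± 78.1 in muscle.

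Of 27 fatty acid oxidation genes 0 were higher in hypothalamus than in all 5 tissues (7.78% of all genes tested were). Their median smallest difference was -3.05. Against single tissues 19 were lower than in liver, 14 than in adrenal gland and 13 than in adipose tissue. Lower than in muscle were 9, and lower than in lung 0. Of all genes tested, 6.47%, 5.74%, 8.15%, 4.2% and 10.5% were lower than in these 5 tissues, in this order. Acadm, the medium-chain dehydrogenase, had 27.4, 32.7 and 37.6 RPM and 72.6 to 183 in lung, the lowest of the other tissues, without overlap (-1.53 ± 0.16). Of 23 cholesterol genes 1 was called higher than in all 5 tissues, a share near the 7.78% of all genes tested. It was Cyp46a1, the neuronal enzyme that makes 24-hydroxycholesterol, with 36.9, 45.7 and 65.5 RPM (4.10). The genes of this list were called higher in 16 of 23 cases against muscle (22.8% of all genes tested were, a share that falls under TMM). They were lower in 4 against adrenal gland (5.74%). Of the 12 mitochondrially encoded genes 0 were called against any tissue.

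Of the 21 genes lower than in all 5 tissues, 20 had no overlap, with every hypothalamus library below all others, as in 176 of all tested genes (1.13%). Dmbt1, a secreted scavenger glycoprotein, had 0, 0.504 and 1.41 RPM in hypothalamus and means of 29.5 ± 11.8 in muscle to 149 ± 51.3 in adipose tissue (SD), with a difference closest to 0 of -4.26 (limma adjusted p = 6.43e-15). Cd1d1, which presents lipids to natural killer T cells, had 3.56, 4.79 and 6.54 (-3.29), the metalloreductase Steap4 0.563, 1.25 and 1.86 (-3.26) and Xdh, the xanthine dehydrogenase gene, 9.52, 11.1 and 13.3 (-3.19). All hypothalamus libraries were below all others in these 4 genes. LOC500300 (-3.16), the matrix gene Dpt (-2.83), the fatty acid receptor Cd36 (-2.61), the transcription factor Cebpb (-2.49) and the growth factor receptor Met (-2.42) came next.

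Cd36 had 2.73, 5.33 and 6.21 RPM in hypothalamus, 23.4 to 50.4 in liver, the next tissue, and 2109 to 3017 in adipose tissue. Cebpb, a factor of the acute phase and of fat cells, had 2.62, 5.23 and 6.95 against 17 to 57.6 in muscle, the next tissue. Slfn4 (-2.28), Igfbp3, a binding protein of insulin-like growth factors (-2.19), Apol9a (-2.11), the integrin Itga5 (-2.11), the water channel Aqp1 (-2.04) and Cyp4b1 (-2.02) completed the first 15. Aqp1 had 4.81 and 6.88 RPM in hypothalamus libraries 6 and 7 and 4.81 to 15.4 over all 6. It was lost without either of these 2 libraries or without liver library 1, 6 or 9 (-1.998 to -1.85). Cyp4b1 was lost without hypothalamus library 2, 6 or 7 or muscle library 2, 7 or 9 (-1.99 to -1.79), Itga5 without hypothalamus library 6 (-1.96), and Apol9a without hypothalamus library 4 (-1.95) or lung library 10 (-1.99).

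The other 6 were under 10 RPM in the lowest other tissue: Ccl6, Cidec, AABR07005844.1, Plbd1, Pfkfb1 and Mnda. Cidec, of lipid droplets, was the 1 gene whose libraries overlapped, with 0 to 0.993 RPM in hypothalamus, 0.802 to 14.8 in muscle and 755 to 1477 in adipose tissue. Ccl6, a chemokine, had -2.46, AABR07005844.1 -2.23, Plbd1 -2.06, Pfkfb1, a regulator of glycolysis, -2.02 and Mnda -2.01. Mnda was lost without hypothalamus library 4 or 6 or liver library 6, 7 or 9 (-1.99 to -1.93). Pfkfb1 was lost without hypothalamus library 2, 3, 4 or 7 or lung library 2, 9 or 10 (-1.98 to -1.89), Plbd1 without hypothalamus library 7 or lung library 10 (-1.97 in both), and Cidec without lung library 10 (-1.79). The lowest mean among the other tissues was that of muscle in 11 of the 21 genes, lung in 6, liver in 3 and adrenal gland in 1.

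Of 21 antigen presentation genes 15 were lower than in lung, 15 than in adrenal gland and 15 than in adipose tissue. Lower than in liver were 5, and lower than in muscle 0. Of all genes tested, 10.5%, 5.74%, 8.15%, 6.47% and 4.2% were lower than in these 5 tissues, in this order. Cd74, the invariant chain, had 39.9, 83.1 and 125 RPM in hypothalamus, 1268 to 1987 in lung and 104 to 155 in muscle, and B2m, the light chain of class I molecules, 391, 629 and 743, 2822 to 3888 and 215 to 413. Both overlapped with muscle. Of 24 innate sensing and interferon-stimulated genes 16 were lower than in lung, 13 than in adipose tissue, 10 than in adrenal gland, 6 than in liver and 0 than in muscle. Irf1, an interferon-induced factor, had 8.19, 13.3 and 16.5 in hypothalamus and 91.3 to 147 in lung. Of 22 caveolae, annexin and S100 genes 13 were lower than in lung (10.5% of all genes tested were) and 13 than in adipose tissue (8.15%), and 10 were higher than in liver (28.4%, a share that falls under TMM). Cav1, the caveolin of endothelium and fat cells, had 66.9, 97.9 and 128, 2186 to 3022 in lung and 4.08 to 118 in liver. Of 12 blood and lymphocyte markers 10 were lower than in lung and 0 higher than in all 5 (10.5% and 7.78% of all genes tested were).

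Variation among the 6 libraries was measured over the 1209 genes. The median SD of log2 values among them was 0.25, against 0.24 over all tested genes, 771 had an SD under 0.3 and 5 an SD over 1. The 10 with the largest SD were LOC100910284, Slc6a3, Fut9, Apeg3, Kcnh7, SNORD116, Dok6, Slc9a7, Gal and Kcnh5. LOC100910284 ranged from 0 to 70.2 RPM, and its ranges and those of SNORD116 (2.67 to 24) touched those of another tissue. Fut9, a fucosyltransferase, had 1.16 RPM in library 1 and 2.89 to 18.2 in the other 5, and the potassium channel genes Kcnh7 and Kcnh5 had 1.65 and 1.74 in library 1 against 4.05 to 15.3 and 3.3 to 12.8. Library 1 was the lowest of the 6 in all 3. It also had the lowest mean correlation with the other 5, 0.943 over 12008 genes, next to 0.950 for library 6 and 0.961 to 0.970 for the rest.

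**Figure D5:**
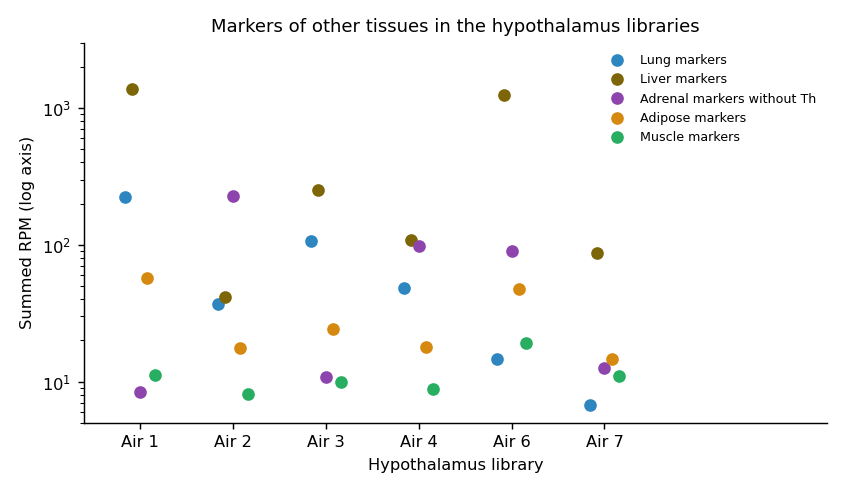
Summed level of marker genes of 5 other tissues in each hypothalamus air library, in RPM on a log axis, by library number. Liver markers reach 1376 and 1252 in libraries 1 and 6, lung markers are highest in library 1, and adrenal markers without Th are highest in library 2, at 226.1.

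The same comparison was made with the ozone libraries of all 6 tissues, 34 libraries that the calls above did not use. They gave 1249 genes higher and 14 lower in hypothalamus than in all 5 tissues. Of these, 1122 were shared with the 1209 of air, which is 92.8% of the air list and 89.8% of the ozone list. For the lower genes 12 were shared, 57.1% of the air list and 85.7% of the ozone list. Gad2 had 605 ± 147 RPM in hypothalamus after ozone and 587 ± 50.8 in air (mean ± SD, n = 6 each). Trh, Avp and Oxt had 326 ± 210.1, 115 ± 28.4 and 70.2 ± 14.4 after ozone and 293 ± 151, 95.9 ± 37 and 52.5 ± 18.3 in air, and the intervals of 1 SD overlapped in each of the 3. Among the named genes Slc5a7, Rorb and Atp1b1 were called in air and not in the ozone libraries, with smallest differences of 0.90, 1.32 and 1.20. Sim1 (3.49), Cx3cr1 (2.53), Dcaf12l1 (2.35), Acot7 (2.30), Doc2a (2.28) and Nsf (2.26) were called in the ozone libraries and not in air. The 9 lower genes called in air alone were Ccl6, Slfn4, Itga5, AABR07005844.1, Igfbp3, Cidec, Mnda, Pfkfb1 and Plbd1, with -1.999 to -0.90 after ozone. The difference between the exposures was not tested here.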

How the data were processed

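Messenger RNA of 6 rat tissues was sequenced on an Illumina instrument after poly(A) selection, per the labels' protocols. The values deposited by the authors are normalised signal, in which each library's gene counts had been divided by a single number: all values above 0 were whole multiples of 1 step within a tolerance of 0.01, so whole reads were recovered. Partek, DESeq2 and the rn6 genome build come from the submitters' processing notes. No aligner, annotation, strand setting or treatment of multi-mapped reads is named (not given in the sources used here). Values of near-identical or overlapping genes, small nucleolar RNAs and antisense genes are therefore uncertain.

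The 6 tables were joined on symbol. Of 19465 entries, 24 symbols that a spreadsheet had turned into dates were left out. Each column was rescaled to 1000000 reads (RPM), and log2(value + 1) was fitted with limma 3.58.1 (trend and robust) in R 4.3.3, in 1 model with a mean for each of the 6 tissues over the 34 air libraries. Genes with a mean of the tissue means of at least 1 were kept, p-values were adjusted by Benjamini-Hochberg within each of 5 comparisons, and a call needed an adjusted p under 0.05 and a log2 difference of at least 2. On simulated data of 14955 genes, 50 of 50 genes were recovered at a log2 difference of 3 and 50 of 50 at -3. At 1 or -1, 0 were called, and 0 unchanged genes were called. Changes were planted only in genes of neither low nor very high level, with 1 fixed setting of the spread. All 6 tissues were otherwise given the hypothalamus profile. The simulation therefore does not cover low genes or tissues that differ in their abundant genes. The precision of low values is set by 3 reads per library, which covers counting error only.

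The genes named were the first 15 higher with a hypothalamus mean of at least 10, the first 15 lower with at least 10 in the lowest other tissue, the first 10 shared with adrenal gland, the 10 most variable of the higher genes, up to 4 called members of each of 20 pathway and 16 marker lists with uncalled members where a count is described, all neuropeptide precursors and the energy paralogs. Some genes that this rule picks are not reported here. Other genes named (the remaining 6 lower genes and others beside a count) were chosen after their values were seen. The members and the lists were chosen with earlier results of these data known. Promoters are from RefSeq (GRCr8), matched by symbol.

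Library numbers were not used to pair the samples in the main fit and served as a block only as an alternative. No label says whether equal numbers in different tissues mean 1 rat. Alternatives were other pseudocounts, filters and thresholds, TMM, rescaling without abundant genes, a fit per tissue, edgeR 4.0.16 and DESeq2 1.42.0 on recovered reads, each library left out and the ozone libraries. Adrenal air library 7 and muscle ozone library 17 were not analysed here.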

Additional observations from a re-analysis of the deposited data

Results flagged for a closer look

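Among the 6 hypothalamus air libraries, 202 values (named genes and summed marker levels) were checked for 1 library far from the other 5, and 12 stood apart, where chance gives about 1 in 20. Library 6 held 8 of the 12. By the same rule, 45 of 462 groups of named genes in the 5 other tissues stood apart. The genes checked are not independent, and some were chosen for a large spread among the hypothalamus libraries. All levels are in RPM.

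In library 6, neurofilament and dopamine genes stood above the other 5 libraries. Nefl, the light neurofilament, was 626.1 against 325.7 to 390.2, Nefh, the heavy one, 125 against 26.1 to 34.3, and Th 137 against 23.9 to 39.1. Cck was 34.46 against 7.34 to 10.9, Syn1 316.4 against 206 to 238 and Dync1i1 218.8 against 163 to 182. SNORD116, a small nucleolar RNA, was lowest there, at 2.671 against 11.4 to 24. The summed level of the muscle tissue markers was 19.14 in that library and 8.15 to 11.3 in the others. Whether these reads came from muscle was not tested.

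In library 1, the glutamate transporter Slc1a1 was 75.13 against 88.4 to 94.8. Chga was lowest in library 2, at 78.6 against 108 to 125. Opalin, of myelin, was lowest in library 3, at 123.7 against 178 to 203, and Cpt1b lowest in library 7, at 4.802 against 6.07 to 6.70.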

How the results depend on the processing

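The order below is lung, liver, adrenal gland, adipose tissue and muscle. A pseudocount of 10 gave 906, 1900, 1049, 1105 and 1512 genes higher and 704, 661, 400, 589 and 383 lower, 611 higher and 2 lower than in all 5 tissues and 107 shared with adrenal gland, and one of 0.1 gave 41 lower than in all 5. A mean of tissue means of at least 10, which tests fewer genes, gave 990, 2870, 1301, 1322 and 2217 higher, 612 in all 5 and 104 shared. TMM gave 2553 higher and 1922 lower against liver, 2087 and 1380 against muscle, and 48 lower in all 5, and rescaling without the mitochondrial and 100 most abundant genes gave 34 lower in all 5. With edgeR 2420, 1482, 2036 and 1827 genes were lower than in liver, adrenal gland, adipose tissue and muscle and 177 than in all 5, and with DESeq2 2068 than in liver, 1598 than in muscle and 142 than in all 5. The causes of these shifts were not tested. A threshold of 1 on the log2 difference gave 3069, 7948, 4098, 4175 and 7012 higher, 3270, 1618, 2697, 2885 and 1361 lower, and 1911 and 116 in all 5. A threshold of 3 gave 1183, 2597, 1401, 1529 and 1968 higher, 735, 658, 350, 549 and 364 lower, and 774 and 5 in all 5.

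Leaving out each of the 34 libraries in turn gave 1196 to 1222 genes higher and 17 to 23 lower than in all 5 and 176 to 184 shared with adrenal gland. By tissue, higher and lower counts were 1792 to 1826 and 1608 to 1657 (lung), 4317 to 4523 and 991 to 1012 (liver), 2322 to 2411 and 862 to 989 (adrenal gland), 2368 to 2430 and 1228 to 1294 (adipose tissue) and 3509 to 3633 and 648 to 664 (muscle). Of 125 named genes called, 116 kept the call in every such fit, and 9, given in the report, were lost in at least 1. No named gene reversed under any alternative run. Of the 199 named genes tested, 125 were called. Of these 125, 49 fell short with a pseudocount of 10, among them 7 neuropeptide precursors given in the report.

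Same-numbered libraries of different tissues had correlations of -0.31 to 0.37 in their deviations (median 0.07, 15 pairs, 5 over 0.1). The median of the 153 other pairs was -0.02. Tissues of 1 rat need not deviate together, so these values cannot show whether equal numbers mean 1 rat. Libraries were not paired in the main fit. A fit with the replicate number as a block gave 1201 genes higher, 18 lower and 183 shared, and Cidec (-1.87), Mnda (-1.93) and Pfkfb1 (-1.78) fell short in it. Under TMM Cidec (-1.998), Pfkfb1 (-1.77) and Plbd1 (-1.89) fell short, and without hypothalamus libraries 1 and 6 Aqp1 (-1.90), Itga5 (-1.95), Mnda (-1.97) and Hk1 (1.98) did. That setting and the one without adrenal library 8 were chosen after seeing the data. Depth limits the low genes: 3 reads are worth 0.159 to 0.339 RPM, and setting genes at 0 to that floor moved a list's median by at most 0.16.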
